A study of Mus musculus with 10 samples.

Results

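The response to induction of primordial germ cell-like cells (PGCLCs) was compared between parthenogenetic embryonic stem cells (pESCs) and female embryonic stem cells from fertilized embryos (ESCs). RNA-seq of 8 of the 10 libraries was used, 2 each of ESCs, pESCs, ESC-PGCLCs and pESC-PGCLCs, and the other 2, of embryonic PGCs, did not enter the fit. Values were TPM, a measure per gene length with an equal sum in every library. Of the 36066 genes in the table, 16684 reached 1 TPM in at least 2 of the 8 libraries. For each of these, the mean change from pESCs to pESC-PGCLCs minus the mean change from ESCs to ESC-PGCLCs was computed on the log2(TPM + 1) scale, and this difference is called the interaction. A positive interaction means that the change on induction was higher in pESCs, through a greater rise, a smaller fall or a rise against a fall.

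All cells were C57BL6 per the labels and, per the study's methods, carried an Actin-GFP transgene. ESCs came from fertilized embryos, while pESCs came from activated oocytes and carry maternal chromosomes alone. Both were plated on fibronectin with activin A, bFGF and KSR to form epiblast-like cells, and then received BMP4, SCF, EGF and LIF in floating culture to form PGCLCs, which were sorted for integrin-β3 (CD61) and SSEA1. The labels name a female and a parthenogenetic line without the number of lines, so origin and line cannot be told apart. The study's methods speak of biological replicates, but the labels do not say whether these were separate cultures, and p-values then measure the spread between libraries, which may be technical. With 2 libraries a group, an exact two-sided permutation test cannot go below 0.333, and all p-values rest on the variances that limma, a linear model for expression data, shares across genes.

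Germ cells of the mouse arise when BMP signals from tissues around the epiblast induce the transcription factors Prdm1, Prdm14 and Tfap2c, and the PGCLC protocol copies this step in culture. PGCs then switch on germline genes and erase the methylation that marks imprinted genes, which are transcribed from a single parental copy. Cells with maternal chromosomes alone are therefore known to lack transcripts of many paternally expressed genes, such as Snrpn, Mest and Peg3, until such marks are lost. Glycolysis and the respiratory chain supply dividing cells with energy, and ribosomes and the proteasome make and degrade their proteins.

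Recovered reads lay between 12176498 and 18572877 in the stem cell libraries and the pESC-PGCLC libraries, whereas the ESC-PGCLC libraries held 7697680 and 6779833. At the median exon length, 3 reads were worth 0.116 to 0.161 TPM in those 6 libraries, and 0.289 and 0.338 TPM in the ESC-PGCLC libraries. Olfactory receptor genes, which these cells should not transcribe, summed to 89.3 and 113 TPM in ESC-PGCLCs, and to between 24.3 and 37.2 TPM in the other 6 libraries. Gm10800 and 12 other predicted genes, chosen for their low interactions after the values were seen, summed to 76584 and 23264 TPM in ESC-PGCLCs and to between 447 and 5136 TPM in the other 6. The sorted proteins' genes marked both kinds of PGCLC, with Itgb3 (CD61) and Fut4 (the enzyme that makes SSEA1) each under 0.12 TPM in every stem cell library and at 3.91 to 6.97 TPM in every PGCLC library. The part of depth in the results was not tested.

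The labels of origin were then compared with the paternally expressed genes. Snrpn, a splicing protein gene transcribed from the paternal copy on chromosome 7 from 59982495 to 60140219 (GRCm38), was at 108 and 88.4 TPM in ESCs and at 6.8 and 9.46 TPM in pESCs. After induction the order was turned, with 14.1 and 10.9 TPM in the libraries labelled ESC-PGCLC, and 94.7 and 105 TPM in those labelled pESC-PGCLC. For Snrpn, PGCLCs of each label thus lay near the stem cells of the other label. The same order was seen for Mest, a paternally expressed hydrolase-like gene, at 39 and 37.8 TPM in ESCs, 2.13 and 3.92 in pESCs, 16.2 and 16.8 in ESC-PGCLCs and 28.8 and 29 in pESC-PGCLCs. Of 19 paternally expressed genes tested, 9 lay below both ESC libraries in pESCs and above both ESC-PGCLC libraries in pESC-PGCLCs, against 30.6% of all genes. Of the same 19, 13 lay below in pESCs and 11 above in pESC-PGCLCs, against 42.0% and 53.0% of all genes. The 9 genes were Snrpn, Snurf, Ndn, Peg3, Mest, Sgce, Nnat, Impact and Mcts2. Of 18 maternally expressed genes, 6 lay below in pESCs and above in pESC-PGCLCs, and 1 had the reverse order. Those 6 were Meg3, Tssc4, Ascl2, Cd81, Tspan32 and Copg2, of which Copg2 overlaps Mest and can share its reads. Of the same 18, 8 lay below and 5 above in pESCs, beside 42.0% and 12.4% of all genes. In pESC-PGCLCs, 2 lay below and 13 above, beside 21.5% and 53.0%. H19, a maternally expressed RNA, and Rhox5, an X-linked homeobox gene, lay above in the parthenogenetic group at both stages. H19 was at 0.0441 and 0.103 TPM in ESCs, 0.139 and 0.234 in pESCs, 5.9 and 7.59 in ESC-PGCLCs and 36.3 and 31.1 in pESC-PGCLCs. Its stem cell values lay near the worth of 3 reads at the median exon length, 0.116 to 0.159 TPM, so that order rests on few reads.

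This turn was not limited to imprinted genes. Across 16684 genes, the difference by origin in stem cells and that in PGCLCs, which share no library, correlated at Pearson's r = -0.39 and Spearman's rho = -0.38, and at r = -0.38 after centring each library along GC content. Of 244 genes called at both stages, 236 differed in opposite directions and 8 in the same direction. Stem cells differed by origin in 460 genes (2.76%), 102 (0.611%) higher and 358 (2.15%) lower in pESCs, but this count was 1334 without pESC replicate 2 and 0 to 14 without any other single library (0 without ESC replicate 1). The count of genes called at both stages in opposite directions accordingly ran from 0 to 475, while r stayed between -0.41 and -0.31. Genes are not independent replicates, so r has no p. Leaving out a PGCLC library does not change the stem cell differences, whose median stayed at -0.18. The stem cell count then moves through the variance estimate and its degrees of freedom. PGCLCs differed by origin in 3830 genes (23.0%), 2928 (17.5%) higher and 902 (5.41%) lower in pESC-PGCLCs. Since the interaction is the origin difference in PGCLCs minus that in stem cells, every value below rests on the labels of all 4 groups, and none can be given without the PGCLC libraries. An exchange of labels was not tested, DNA methylation was not analysed here, and groups are named as the labels give them.

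**Figure D1:**
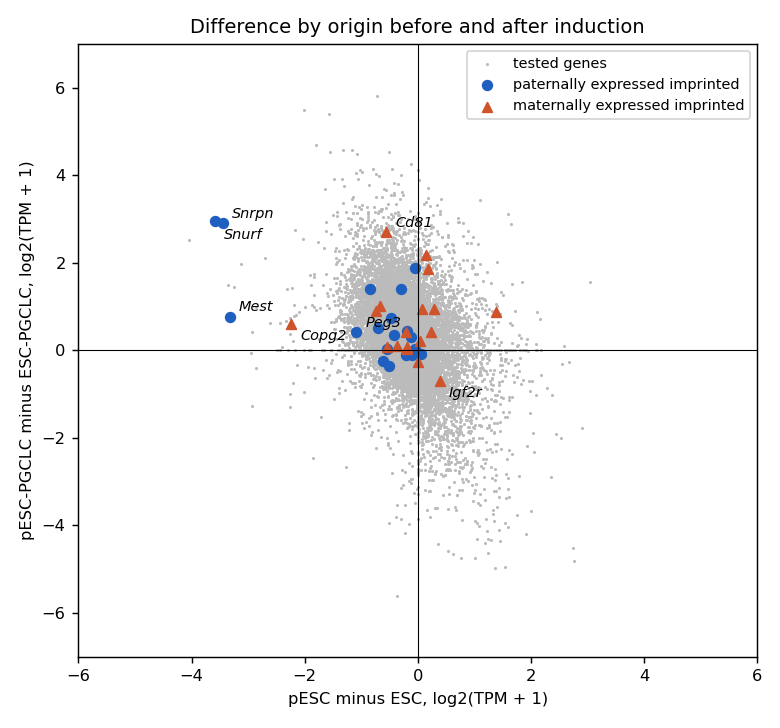
Each point is 1 of 16684 genes, with pESC minus ESC on the x axis and pESC-PGCLC minus ESC-PGCLC on the y axis, both differences of group means on the log2(TPM + 1) scale; circles are paternally and triangles maternally expressed imprinted genes. Snrpn, Snurf and Mest lie at the upper left, lower in pESCs than in ESCs and higher in pESC-PGCLCs than in ESC-PGCLCs, and the cloud of genes slopes downward (r = -0.39).

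Snrpn, Mest and Peg3 are known for a promoter that is methylated on the maternal copy, so their promoters are shown here. The 250 bases upstream of the RefSeq start on GRCm38.p6 are given 5′ to 3′ on the gene's strand, with CpG in capitals, the bases that can be methylated.
Snrpn, chr7:60005200-60005449, minus strand: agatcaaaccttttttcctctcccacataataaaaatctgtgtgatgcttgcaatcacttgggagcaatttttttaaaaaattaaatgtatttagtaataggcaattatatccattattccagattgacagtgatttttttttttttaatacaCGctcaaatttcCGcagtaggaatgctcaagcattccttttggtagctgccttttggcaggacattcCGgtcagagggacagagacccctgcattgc
Mest, chr6:30737800-30738049, plus strand: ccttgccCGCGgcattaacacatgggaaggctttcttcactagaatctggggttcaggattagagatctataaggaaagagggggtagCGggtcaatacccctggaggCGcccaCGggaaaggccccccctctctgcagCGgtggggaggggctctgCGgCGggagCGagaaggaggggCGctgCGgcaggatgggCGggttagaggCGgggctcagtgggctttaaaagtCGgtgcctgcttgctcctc
Peg3, chr7:6730420-6730669, minus strand: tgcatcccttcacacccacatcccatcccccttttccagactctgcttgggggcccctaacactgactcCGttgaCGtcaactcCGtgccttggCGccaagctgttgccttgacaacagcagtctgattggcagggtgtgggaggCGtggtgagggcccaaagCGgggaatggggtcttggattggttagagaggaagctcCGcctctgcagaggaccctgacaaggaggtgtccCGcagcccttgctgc
These windows held 3 CpG for Snrpn, 14 for Mest and 8 for Peg3, against a median of 6 in 32851 promoter windows of this length. At least as many CpG were found in 71.0% of the windows for Snrpn, 29.4% for Mest and 43.0% for Peg3. The motif TGCCGC, the core bound by ZFP57 when methylated, was searched on both strands and was found 2 times for Mest, with no match in the other windows, and in 8.68% of all windows. RefSeq gives several starts for Snrpn and Mest, and the window printed for Snrpn is the start it shares with Snurf.

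Among imprinted genes, Snrpn and the overlapping Snurf had the largest interactions. The interaction of Snrpn was 6.36 ± 0.30 (SE), adjusted p = 0.00024, made of a change of 3.48 in pESCs and of -2.88 in ESCs. Snurf was at 223 and 194 TPM in ESCs, 12.1 and 21.9 in pESCs, 34.1 and 18.2 in ESC-PGCLCs and 198 and 203 in pESC-PGCLCs, with an interaction of 6.55 ± 0.48 (SE), adjusted p = 0.00032, and its reads cannot be told apart from those of Snrpn where the genes overlap. Both genes rose in pESCs and fell in ESCs, with no overlap between groups of the same stage. For Mest, on chromosome 6 from 30723547 to 30748465, the interaction was 4.10 ± 0.31 (SE), adjusted p = 0.00033. Copg2, which overlaps Mest, was at 19.9 and 20.5 TPM in ESCs, 2.62 and 4.53 in pESCs, 16.6 and 16.7 in ESC-PGCLCs and 25.7 and 26.2 in pESC-PGCLCs and had an interaction of 2.85 ± 0.29 (SE), adjusted p = 0.0006. Reads of Mest and Copg2 cannot be separated where the genes overlap, since the counting is not stated to use strand.

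Nnat, a paternally expressed gene of a small membrane protein, was at 1.48 and 1.01 TPM in ESCs, 0.187 and 0.315 in pESCs, 1.49 and 0.672 in ESC-PGCLCs and 4.88 and 3.89 in pESC-PGCLCs. Its interaction was 2.23 ± 0.33 (SE), adjusted p = 0.0021. Peg3, a zinc finger gene, was at 6.92 and 7.01 TPM in ESCs, 2.19 and 3.41 in pESCs, 33 and 30.9 in ESC-PGCLCs and 41.3 and 44.5 in pESC-PGCLCs and rose in both kinds of cells, more in pESCs (1.5 ± 0.26 (SE), adjusted p = 0.0039), although it was no longer called after quantile normalization or median centring. Of the paternally expressed genes, 8 of 19 tested members were called higher and 0 lower, beside 27.5% and 6.66% of all tested genes. Their median interaction was 0.78, against 0.50 over all genes.

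Of the maternally expressed genes, 6 of 18 tested members were called higher and 1 lower, with a median of 0.61. Igf2r, a receptor that clears IGF2 and is transcribed from the maternal copy, was at 0.874 and 0.758 TPM in ESCs, 1.34 and 1.43 in pESCs, 14.7 and 13.4 in ESC-PGCLCs and 8.01 and 8.59 in pESC-PGCLCs. It rose in both, less in pESCs (-1.09 ± 0.20 (SE), adjusted p = 0.0054), and its values lay above those of ESCs in pESCs but below those of ESC-PGCLCs in pESC-PGCLCs. H19, next to Igf2, rose more in pESCs (2.02 ± 0.25 (SE), adjusted p = 0.00098), but was not called with voom on recovered reads (0.92, adjusted p = 0.39). Cd81, which codes for a tetraspanin, fell less in pESCs (3.26 ± 0.22 (SE), adjusted p = 0.00029), from 333 and 296 TPM to 7.52 and 7.42 TPM in ESCs and from 191 and 237 TPM to 51.4 and 56.9 TPM in pESCs. Slc22a18, a transporter gene, had an interaction of 1.67, and was not called after GC or median centring.

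Over all genes, 5696 were called in the interaction at an adjusted p under 0.05 and a difference of at least 1, which is 34.1% of those tested. The difference was positive in 4585 (27.5%) and negative in 1111 (6.66%). Induction alone changed 7608 genes (45.6%) in pESCs, 5705 (34.2%) up and 1903 (11.4%) down, and 8165 genes (48.9%) in ESCs, 4156 (24.9%) up and 4009 (24.0%) down. The 2 responses were correlated across genes (Pearson's r = 0.69, Spearman's rho = 0.65), and they share no library.

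The share of higher calls depended on scaling. The median interaction was 0.50 in TPM as deposited, 0.02 after quantile normalization, -0.24 after centring each library on its median and 0.03 after centring along GC content, and the share of calls that were higher was 80.5%, 55.3%, 38.6% and 55.6%, respectively. Counts below are therefore given for TPM as deposited and for genes called in the same direction under all 4 scalings. Of the latter there were 1621 higher (9.72%) and 1027 lower (6.16%). Counts of list members are to be read beside these shares, and beside 27.5% higher and 6.66% lower as deposited. Of the 1621 higher genes, 851 (52.5%) fell at least 2-fold in ESCs and changed by less in pESCs, 370 rose at least 2-fold in pESCs alone, and 183 rose in pESCs and fell in ESCs. Of the 1027 lower genes, 541 (52.7%) rose at least 2-fold in ESCs and changed by less in pESCs.

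The response to induction also varied with the GC content of the transcript, and did so in ESCs. From the lowest to the highest of 10 equal bins of genes by GC content, the median change on induction went from 0.60 to -0.37 in ESCs, whereas it stayed between 0.44 and 0.76 in pESCs. The median interaction went from 0.03 to 0.85. Beyond the GC-centred values given, the part of GC content in the results was not tested.

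**Figure D2:**
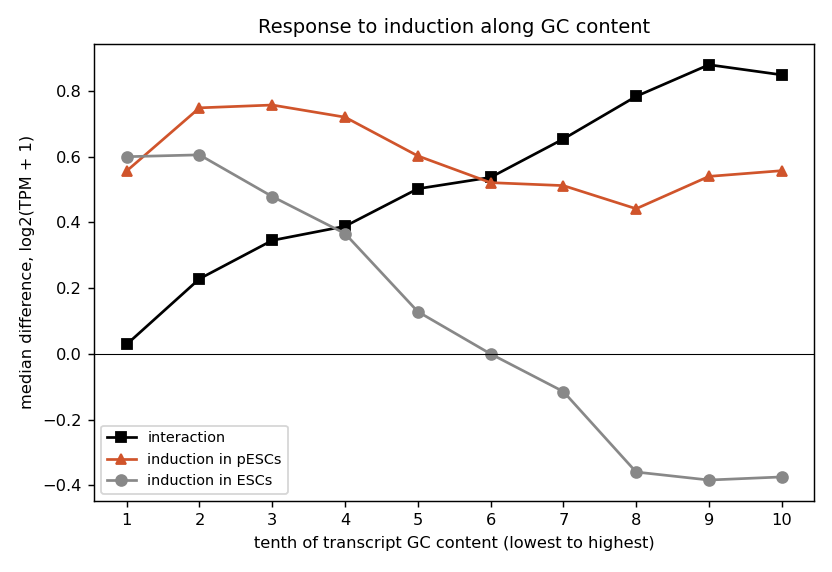
Median change on induction on the log2(TPM + 1) scale (y axis) in 10 equal bins of genes by transcript GC content (x axis), for ESCs (circles), pESCs (triangles) and the interaction (squares). The ESC line falls from 0.60 to -0.37 while the pESC line stays between 0.44 and 0.76.

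**Figure D3:**
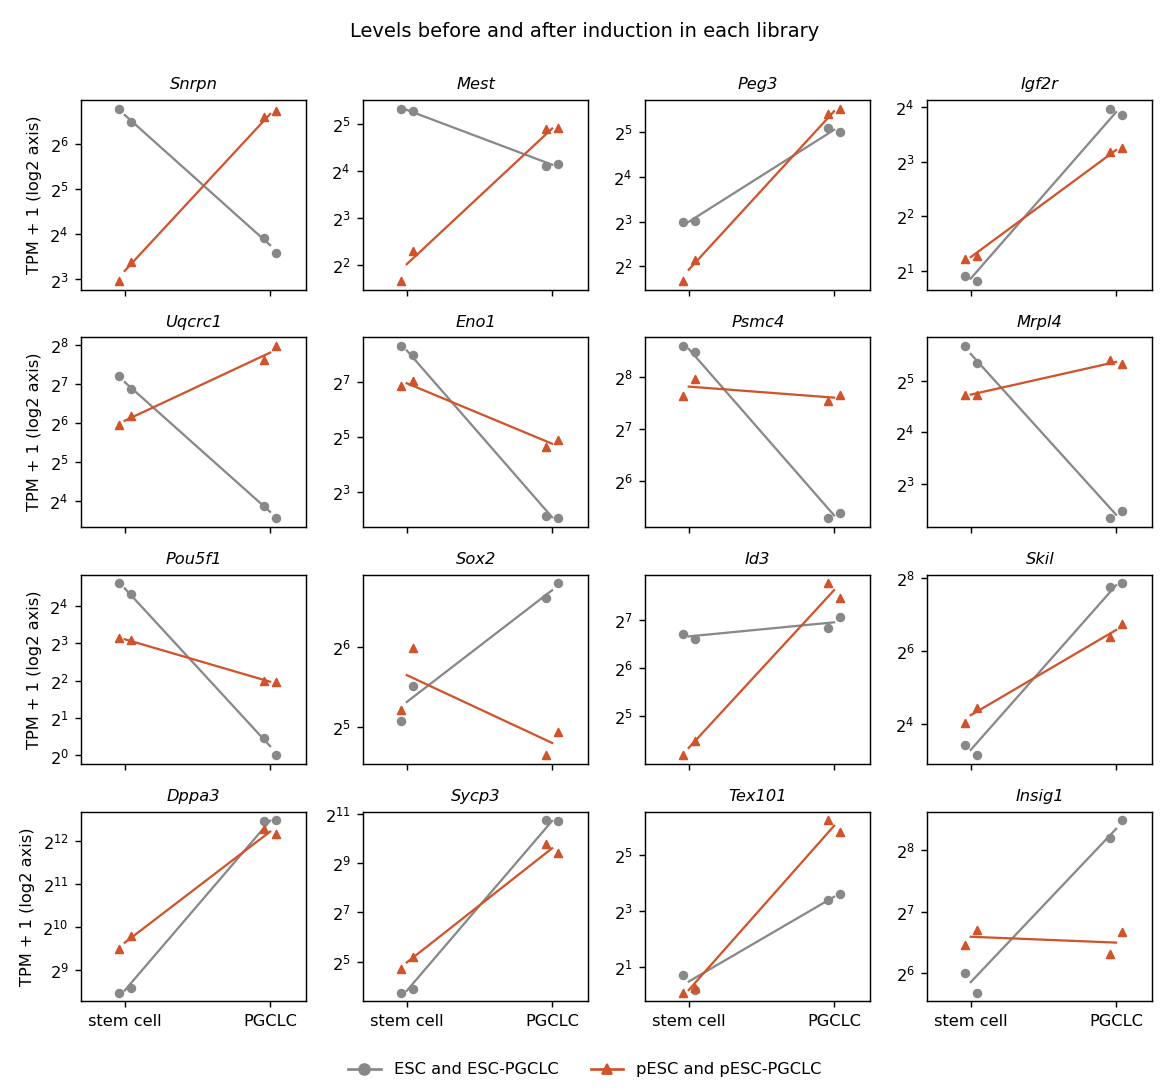
TPM + 1 on a log2 axis in each of the 8 libraries for 16 genes, before (stem cell) and after (PGCLC) induction; points are libraries and lines join group means of ESCs (circles) and pESCs (triangles). The lines of the 2 origins cross in all 16 panels, with pESC-PGCLCs ending higher for Snrpn, Mest, Uqcrc1 and Id3 and lower for Igf2r, Sox2, Skil and Insig1.

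Genes of glycolysis had a higher response in pESCs, mostly by a smaller fall. Of the list, 16 of 21 tested members were called higher and 0 lower, and under all 4 scalings 7 higher and 0 lower. The median interaction was 1.63, with a median change of -0.92 in pESCs and -2.78 in ESCs, and 0.88 after GC centring. Eno1, the enolase gene, was at 319.7 and 252 TPM in ESCs, 117 and 132 in pESCs, 3.32 and 3.11 in ESC-PGCLCs and 23.8 and 28.4 in pESC-PGCLCs (3.87 ± 0.25 (SE), adjusted p = 0.00029). In each PGCLC group all libraries lay below the stem cells, and the drop in ESCs was the greater. Tpi1, which codes for triosephosphate isomerase, had an interaction of 3.12 and fell from 180.1 and 155 TPM to 6.19 and 5.98 TPM in ESCs, but from 82.8 and 95.9 TPM to 30.7 and 33.5 TPM in pESCs. Pgam1 (2.69, phosphoglycerate mutase) fell in both as well, and Aldoa (2.45, aldolase) in ESCs. Hilpda, a lipid droplet gene of the hypoxia list, had an interaction of 2.42 and stood at 11.2 and 8.91 TPM in ESC-PGCLCs, against 40.6 to 57.3 TPM in the 6 other libraries. In that list, 6 of 19 tested members were called higher and 1 lower, and Anxa2 (3.07, an annexin) and Adm (2.07, adrenomedullin) rose more in pESCs.

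Nuclear genes of the respiratory chain responded unevenly. Uqcrc1, a core subunit of complex III on chromosome 9 from 108936633 to 108949623, had the largest interaction of this list, at 146 and 116 TPM in ESCs, 60.2 and 70.9 in pESCs, 13.6 and 10.8 in ESC-PGCLCs and 195 and 249.8 in pESC-PGCLCs (5.06 ± 0.29 (SE), adjusted p = 0.00029). It rose in pESCs by 1.74 and fell by 3.32 on the log2 scale in ESCs, and the PGCLC groups did not overlap. Complex I subunits Ndufs7 (3.30), Ndufa10 (2.71) and Ndufs3 (2.63) were also higher. Over the list, 25 of 54 tested members were called higher and 5 lower, and under all 4 scalings 12 higher and 3 lower, with a median of 0.82. By single scaling, 19 were called higher and 5 lower after quantile normalization (median 0.64). After median centring the counts were 13 and 13 (median 0.07), and after GC centring 13 and 11 (median 0.26), so the excess of higher calls depended on scaling.

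Of the transcripts that the mitochondrial genome itself encodes, 2 of 37 tested members were called higher and 14 lower, and 21 were not called, with 1 higher and 7 lower under all 4 scalings and a median of -0.59. That median was -0.13 after quantile normalization, -1.34 after median centring and -0.88 after GC centring. The transfer RNA gene mt-Th was at 51.8 and 75.3 TPM in ESCs, 66.2 and 49.9 in pESCs, 245 and 293 in ESC-PGCLCs and 33.3 and 34.9 in pESC-PGCLCs (-2.82 ± 0.32 (SE), adjusted p = 0.00076). It rose in ESCs, with a change of -0.74 in pESCs. The complex I gene mt-Nd3 was at 265 and 354 TPM in ESCs, 645 and 666 in pESCs, 465 and 544 in ESC-PGCLCs and 160.3 and 147 in pESC-PGCLCs (-2.80 ± 0.24 (SE), adjusted p = 0.0004), and fell in pESCs. The summed level of all 37 was 211394 and 212232 TPM in ESC-PGCLCs and 188343 and 218713 TPM in pESC-PGCLCs, so that the groups overlapped in the sum.

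Mitochondrial ribosomal proteins, which translate those transcripts and are encoded in the nucleus, had a higher response in pESCs: 51 of 78 tested members were called higher and 2 lower, and 20 higher and 2 lower under all 4 scalings. Their median interaction was 1.23, from a median change of 0.53 in pESCs and -0.76 in ESCs. Mrpl4 was at 49.9 and 39.6 TPM in ESCs, 25.5 and 25.5 in pESCs, 4.02 and 4.51 in ESC-PGCLCs and 41.2 and 39.1 in pESC-PGCLCs (3.75 ± 0.23 (SE), adjusted p = 0.00029), Mrps18b had an interaction of 3.57 and Mrps18a of 3.56. These 3 and the family members named in the next paragraphs were chosen as the largest after their values were seen.

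Of the cytosolic ribosomal proteins, 14 of 83 tested members were called higher and 13 lower, and 56 were not called, with 3 higher and 10 lower under all 4 scalings and a median of 0.01. Rpl29 (3.30, adjusted p = 0.0011) and Rplp0 (2.42, adjusted p = 0.00031) fell less in pESCs. Rpl26 was at 1113 and 1236 TPM in ESCs, 1299 and 1348 in pESCs, 1258 and 1284 in ESC-PGCLCs and 326 and 337 in pESC-PGCLCs (-2.11 ± 0.15 (SE), adjusted p = 0.00031), so that it fell in pESCs, with a change of 0.12 in ESCs. Ribosomal protein genes have many processed copies in the genome, and their reads can be split among them. Of the translation initiation factors, 26 of 58 tested members were called higher and 0 lower, and 32 were not called (17 higher and 0 lower under all 4 scalings, median 0.85). The eIF2B subunits Eif2b1 (3.09) and Eif2b2 (3.0), which recharge initiation factor 2 with GTP, and Eif4ebp1 (2.89), which restrains cap binding, were the largest.

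**Figure D4:**
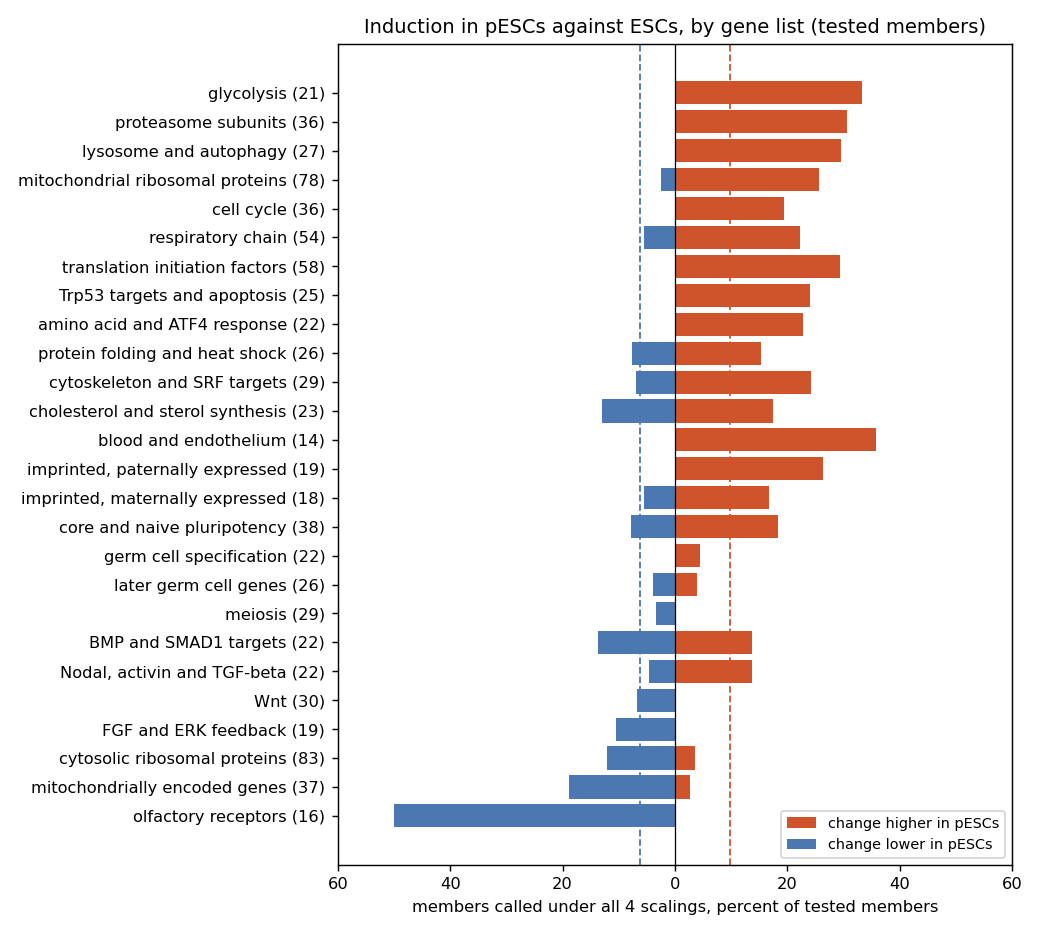
Share of tested members (x axis, percent) of 26 gene lists and families that were called under all 4 scalings with a higher (right) or lower (left) change in pESCs; numbers of tested members stand in parentheses and dashed lines give the shares over all genes, 9.72% and 6.16%. Glycolysis, proteasome, lysosome and initiation factor genes reach to the right, and mitochondrially encoded genes to the left; of olfactory receptors, 16 of 544 passed the filter on low values.

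Of the subunits of the proteasome, which degrades tagged proteins, 27 of 36 tested members were called higher and 0 lower, and 11 higher and 0 lower under all 4 scalings, median 1.39. The ATPase gene Psmc4 was at 386 and 357 TPM in ESCs, 199 and 249.9 in pESCs, 37.9 and 41 in ESC-PGCLCs and 185 and 202 in pESC-PGCLCs (3.0 ± 0.21 (SE), adjusted p = 0.00031). It fell in ESCs, with a change of -0.20 in pESCs. Psmd13 (3.31) and Psmc5 (2.79) also fell in ESCs, with changes of 0.80 and -0.15 in pESCs. Of the lysosome and autophagy genes, 16 of 27 tested members were called higher and 0 lower, and 8 higher and 0 lower under all 4 scalings. The protease genes Ctsz (3.24, adjusted p = 0.00034) and Ctsb (2.59, adjusted p = 0.00058) and the autophagy receptor gene Sqstm1 (2.42) fell in ESCs. Ctsz was at 55.4 and 50.1 TPM in ESCs, 26.7 and 27 in pESCs, 7.73 and 5.46 in ESC-PGCLCs and 35 and 36.4 in pESC-PGCLCs.

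Protein folding genes were called in both directions. In the list, 11 of 26 tested members were called higher and 2 lower. Pdia3, a disulphide isomerase of the endoplasmic reticulum, was at 226 and 181 TPM in ESCs, 91.7 and 112 in pESCs, 13.9 and 14.1 in ESC-PGCLCs and 67.6 and 70.6 in pESC-PGCLCs (3.21 ± 0.24 (SE), adjusted p = 0.00032), and Xbp1, a regulator of the unfolded protein response, had an interaction of 2.50. The called genes that were lower were a pair of inducible heat shock genes of the cytosol. Hspa1b was at 0 and 0.06 TPM in ESCs, 0.0406 and 0 in pESCs, 9.68 and 12.7 in ESC-PGCLCs and 0.377 and 0.303 in pESC-PGCLCs (-3.16 ± 0.25 (SE), adjusted p = 0.00034). Its neighbour Hspa1a, nearly identical in sequence, so that reads of the pair cannot be assigned with certainty, had an interaction of -2.55 and reached 7.72 and 7.62 TPM in ESC-PGCLCs, with at most 0.356 TPM in the other 6 libraries. Both rose in ESCs on induction, with changes of 0.39 for Hspa1b and 0.28 for Hspa1a in pESCs.

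Of the sterol synthesis genes, 10 of 23 tested members were called higher and 3 lower, and 4 higher and 3 lower under all 4 scalings. Insig1, which retains the sterol sensor in the endoplasmic reticulum, was at 63.5 and 50.5 TPM in ESCs, 87.4 and 104 in pESCs, 292 and 357 in ESC-PGCLCs and 78.3 and 101 in pESC-PGCLCs (-2.59 ± 0.28 (SE), adjusted p = 0.0007), and Srebf2, the transcription factor of the pathway, at 6.71 and 6.9 TPM in ESCs, 10.6 and 10.7 in pESCs, 15.8 and 20.01 in ESC-PGCLCs and 5.87 and 6.05 in pESC-PGCLCs (-2.01 ± 0.22 (SE), adjusted p = 0.00075). Both rose in ESCs, with changes of -0.10 and -0.75 in pESCs. The enzyme genes Fdft1 (2.29, squalene synthase) and Ebp (2.05, a sterol isomerase) fell in ESCs, and Ebp fell in pESCs too. For amino acid supply, 10 of 22 tested members were called higher and 0 lower. Phgdh, the first enzyme of serine synthesis (3.05, adjusted p = 0.00052), Asns, asparagine synthetase (2.40, adjusted p = 0.00039), and Shmt2, of mitochondrial folate metabolism (2.25), fell further in ESCs. Their regulator Atf4 was not called (-0.87), at 33.6 and 37.5 TPM in ESC-PGCLCs and 17.7 and 16 TPM in pESC-PGCLCs.

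Of the cell cycle genes, 20 of 36 tested members were called higher and 0 lower, and 7 higher and 0 lower under all 4 scalings (median 1.10, and 0.58 after GC centring). Cdc20, the activator of the anaphase complex, was at 151 and 122 TPM in ESCs, 48.3 and 70.2 in pESCs, 70.9 and 73.7 in ESC-PGCLCs and 157 and 178 in pESC-PGCLCs (2.40 ± 0.29 (SE), adjusted p = 0.00098), and Mcm5, of the replicative helicase, at 44 and 39.2 TPM in ESCs, 20.2 and 26.2 in pESCs, 27.3 and 26.3 in ESC-PGCLCs and 70.8 and 75.2 in pESC-PGCLCs (2.23 ± 0.23 (SE), adjusted p = 0.00062). Both rose in pESCs, with changes of -0.89 and -0.61 in ESCs. Cdk4 (2.57) and Ccne1 (2.28), which drive entry into S phase, fell in ESCs. Of the p53 targets and apoptosis genes, 9 of 25 tested members were called higher and 0 lower. Bax, which permeabilizes the outer mitochondrial membrane, was at 148 and 115 TPM in ESCs, 73.8 and 57.2 in pESCs, 8.4 and 6.24 in ESC-PGCLCs and 62.2 and 68.4 in pESC-PGCLCs (4.00 ± 0.30 (SE), adjusted p = 0.00033), so that it fell in ESCs, with a change of 0.01 in pESCs. Bid (2.80) and Pmaip1 (2.45), which act on the same step, and the growth arrest gene Btg2 (2.88) had the same sign.

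Pluripotency genes responded one by one. Of the core and naive list, 14 of 38 tested members were called higher and 3 lower, and 7 higher and 3 lower under all 4 scalings, with a median of 0.62. Pou5f1 (OCT4), on chromosome 17 from 35506018 to 35510772, was at 23.5 and 19 TPM in ESCs, 7.8 and 7.49 in pESCs, 0.374 and 0 in ESC-PGCLCs and 2.98 and 2.88 in pESC-PGCLCs (3.10 ± 0.28 (SE), adjusted p = 0.00045). It fell in both and was near 0 in ESC-PGCLCs. At these levels, 0.374 and 0 TPM in ESC-PGCLCs lie at or near the worth of 3 reads, so the size of the fall in ESCs depends on the pseudocount. Sox2, its partner on DNA, went the other way, at 32.7 and 44.6 TPM in ESCs, 35.9 and 62.4 in pESCs, 97.3 and 110.5 in ESC-PGCLCs and 23.9 and 29.7 in pESC-PGCLCs (-2.22 ± 0.40 (SE), adjusted p = 0.0045). Nanog, the third core factor, was at 674 and 470.1 TPM in ESCs, 412 and 403 in pESCs, 24.2 and 35 in ESC-PGCLCs and 28.8 and 35.1 in pESC-PGCLCs and was not called (0.59, with the opposite sign, -0.16, after median centring). It fell in both kinds of cells.

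Tcl1, a co-activator of AKT, was at 138 and 130.4 TPM in ESCs, 92.9 and 126 in pESCs, 11.2 and 13.4 in ESC-PGCLCs and 102 and 97.5 in pESC-PGCLCs (3.23 ± 0.26 (SE), adjusted p = 0.00035). It fell in ESCs, with a change of -0.11 in pESCs. Utf1, a chromatin factor of undifferentiated cells, had an interaction of 2.93 and rose in pESCs from 8.81 and 6.11 TPM to 49 and 60.4 TPM. Trim28, the co-repressor that guards imprints, was at 72.8 and 72.9 TPM in ESCs, 40.3 and 52.4 in pESCs, 40.8 and 34.4 in ESC-PGCLCs and 112 and 118 in pESC-PGCLCs (2.25 ± 0.24 (SE), adjusted p = 0.00066). Zfp57, which recruits TRIM28 to imprinted regions, fell in both, from 29.3 and 19.6 to 0.0555 and 0.26 TPM in ESCs and from 9.29 and 11.4 to 0.806 and 1.68 TPM in pESCs (2.08 ± 0.38 (SE), adjusted p = 0.0049). Mbd3, of the NuRD complex, had an interaction of 2.01, but of 0.99 after GC centring, which is not called.

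Of the genes that specify germ cells, 6 of 22 tested members were called higher and 1 lower, so that 31.8% were called, beside 34.1% of all genes. Under all 4 scalings the counts were 1 higher and 0 lower. The median interaction as deposited was -0.0034, beside 0.50 over all genes, with median changes on induction of 1.49 in pESCs and 1.35 in ESCs. After quantile normalization, median centring and GC centring the median was -0.48, -0.75 and -0.50, beside 0.02, -0.24 and 0.03 over all genes. Calls were then 3 higher and 1 lower, 2 and 5, and 1 and 4, respectively. Of the 3 factors that BMP induces, Prdm1 was at 1.97 and 1.7 TPM in ESCs, 2.75 and 2.21 in pESCs, 10.9 and 10.4 in ESC-PGCLCs and 8.71 and 10.4 in pESC-PGCLCs and Tfap2c at 4.51 and 4.6 TPM in ESCs, 3.56 and 4.55 in pESCs, 11.3 and 11.2 in ESC-PGCLCs and 7.44 and 8.9 in pESC-PGCLCs. Neither was called (-0.44 and -0.28). Prdm14 lay between 10.9 and 18.1 TPM in all 8 libraries, with an interaction of 0.20 that was negative after each other scaling. Itgb3 (-0.11) and Fut4 (-0.24) were not called, and their sign was positive with voom on recovered reads.

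Dppa3 (STELLA), which protects maternal chromatin from demethylation, was at 353 and 378 TPM in ESCs, 709 and 873 in pESCs, 5628 and 5681 in ESC-PGCLCs and 4938 and 4547 in pESC-PGCLCs. It rose in both and less in pESCs (-1.36 ± 0.18 (SE), adjusted p = 0.0013), and was not called after quantile normalization. Nanos3, required for survival of PGCs, rose more in pESCs (1.18 ± 0.23 (SE), adjusted p = 0.0059), at 6.46 and 5.19 TPM in ESCs, 4.56 and 4.49 in pESCs, 38.5 and 34.3 in ESC-PGCLCs and 64.1 and 71.9 in pESC-PGCLCs, and was not called under the other 3 scalings. Sox15 had the largest interaction of the germ cell specification list, at 55.2 and 48.9 TPM in ESCs, 32.4 and 42.3 in pESCs, 3.42 and 2.57 in ESC-PGCLCs and 24.7 and 30.5 in pESC-PGCLCs (3.32 ± 0.29 (SE), adjusted p = 0.00042). It fell in ESCs, with a change of -0.42 in pESCs. Alpl (alkaline phosphatase, 1.85), Sall4 (1.66) and Elf3 (1.47) were higher as deposited but were not called after GC centring. Rhox5, an X-linked homeobox gene, was at 80.2 and 69.3 TPM in ESCs, 174 and 201 in pESCs, 942 and 893 in ESC-PGCLCs and 1472 and 1398 in pESC-PGCLCs and was not called (-0.67).

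Later germline and meiosis genes responded to induction in both kinds of cells. The median change of the later germline list was 3.89 in pESCs and 3.41 in ESCs, and 2 of 26 tested members were called higher and 1 lower. For meiosis the medians were 3.23 and 3.03, and 6 of 29 tested members were called higher and 2 lower (0 higher and 1 lower under all 4 scalings). The median interaction as deposited was 0.12 for later germline and 0.01 for meiosis genes, beside 0.50 over all genes. Both medians were negative after quantile normalization (-0.30 and -0.43), median centring (-0.63 and -0.73) and GC centring (-0.08 and -0.20). Of the meiosis genes, 3 were then called higher and 6 lower, 0 and 9, and 1 and 1, respectively. Tex101, a surface protein of germ cells, was at 0.655 and 0.152 TPM in ESCs, 0.0687 and 0.209 in pESCs, 9.39 and 11.3 in ESC-PGCLCs and 73.4 and 54.9 in pESC-PGCLCs (2.80 ± 0.33 (SE), adjusted p = 0.00093). It rose in both and was higher in pESC-PGCLCs. Sycp3, a component of the synaptonemal complex, was at 12.4 and 13.8 TPM in ESCs, 24.7 and 35.8 in pESCs, 1702 and 1651 in ESC-PGCLCs and 867 and 685 in pESC-PGCLCs (-2.25 ± 0.29 (SE), adjusted p = 0.0012), and thus rose more in ESCs. Taf7l, a germ cell form of a general transcription factor, was also lower (-1.02, adjusted p = 0.018), and lost its call (-0.86) without ESC replicate 2 and without 3 other libraries. Tex12, another component of the synaptonemal complex, was not called (-0.95), at 450.3 and 522 TPM in ESC-PGCLCs and 323 and 255 TPM in pESC-PGCLCs. Fkbp6 (1.6), Rec8 (1.53) and Zglp1 (1.52) were higher as deposited and not called after median or GC centring.

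BMP, the signal that induces PGCs, acts through SMAD1. In the list of its ligands and targets, 4 of 22 tested members were called higher and 3 lower, so that 31.8% were called, beside 34.1% of all genes, and 3 higher and 3 lower under all 4 scalings. Bmp4, the ligand, was at 2.12 and 1.42 TPM in ESCs, 0.152 and 0.616 in pESCs, 3.55 and 3.93 in ESC-PGCLCs and 6.53 and 8.13 in pESC-PGCLCs (1.82 ± 0.32 (SE), adjusted p = 0.0042), and Bmp8b, a related ligand, fell in ESCs, with a change of 0.54 in pESCs (2.57 ± 0.26 (SE), adjusted p = 0.00059). Id3, a direct target, was at 104 and 97 TPM in ESCs, 17.2 and 21.4 in pESCs, 113 and 133 in ESC-PGCLCs and 218 and 176 in pESC-PGCLCs (3.0 ± 0.25 (SE), adjusted p = 0.00039). It was low in pESCs before induction and highest in pESC-PGCLCs. The inhibitor Smad7 was at 1.9 and 2.51 TPM in ESCs, 2.52 and 3.39 in pESCs, 6.23 and 8.64 in ESC-PGCLCs and 2.13 and 2.89 in pESC-PGCLCs (-1.56 ± 0.32 (SE), adjusted p = 0.0075). It rose in ESCs, with a change of -0.17 in pESCs.

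In the Nodal and activin branch, 6 of 22 tested members were called higher and 1 lower. Gdf3 (2.18, adjusted p = 0.00048) and Lefty2 (2.17, adjusted p = 0.0045), a ligand and an inhibitor, fell in both and further in ESCs. Foxh1, the DNA-binding partner of SMAD2, was at 18.7 and 14.1 TPM in ESCs, 5.42 and 5.24 in pESCs, 3.08 and 2.7 in ESC-PGCLCs and 10.7 and 10.04 in pESC-PGCLCs (2.99 ± 0.25 (SE), adjusted p = 0.00038). Skil, which represses SMAD targets, was at 9.72 and 7.76 TPM in ESCs, 15.3 and 20.5 in pESCs, 215 and 232 in ESC-PGCLCs and 82.6 and 107 in pESC-PGCLCs (-2.19 ± 0.29 (SE), adjusted p = 0.0014), so that it rose in both and more in ESCs. In the FGF list, 2 of 19 tested members were called higher and 2 lower. The feedback inhibitor Spry2 was at 264 and 197 TPM in ESCs, 357 and 389 in pESCs, 293 and 387 in ESC-PGCLCs and 106 and 201 in pESC-PGCLCs (-1.90 ± 0.44 (SE), adjusted p = 0.012), a call lost without ESC replicate 2 (-1.69), and the receptor gene Fgfr1 was lower as well (-1.19, adjusted p = 0.0076). Fos was higher (1.40) but not after median or GC centring.

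Of the Wnt list, 6 of 30 tested members were called higher and 2 lower, with 0 higher and 2 lower under all 4 scalings. For retinoic acid, which later drives entry into meiosis, 5 of 10 tested members were called higher and 1 lower. Aldh1a3, an enzyme that makes it, was at 9.26 and 7.6 TPM in ESCs, 15.6 and 16.9 in pESCs, 18.1 and 26.3 in ESC-PGCLCs and 3.51 and 2.44 in pESC-PGCLCs (-3.41 ± 0.32 (SE), adjusted p = 0.00049). Crabp2, which carries it to the nucleus, was at 4.93 and 4.65 TPM in ESCs, 3.27 and 3.14 in pESCs, 7 and 8.73 in ESC-PGCLCs and 36.5 and 30.5 in pESC-PGCLCs (2.42 ± 0.24 (SE), adjusted p = 0.00053). The enzyme thus rose in ESCs and fell in pESCs, and the carrier rose in pESCs.

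Markers of other cell types were read alongside. Of 23 blood and endothelium genes, 7 of 14 tested members were called higher and 0 lower (5 higher and 0 lower under all 4 scalings), and the called members were haemoglobin genes. Hba-x, an embryonic α-like globin, was at 0.347 and 0.628 TPM in ESCs, 0 and 0.492 in pESCs, 49.5 and 51.9 in ESC-PGCLCs and 636 and 639.9 in pESC-PGCLCs (3.91 ± 0.30 (SE), adjusted p = 0.00034). Hba-a1 (2.83), Hba-a2 (2.83) and Hbb-bh1 (2.54) also rose more in pESCs, although Hba-a1 and Hbb-bh1 were not called with voom on recovered reads, and reads of the near-identical Hba-a1 and Hba-a2 cannot be separated. The 10 haemoglobin genes summed to 496 and 562 TPM in ESC-PGCLCs, 3455 and 2917 TPM in pESC-PGCLCs, 2216 and 2008 TPM in PGCs and at most 4.00 TPM in stem cells. The erythroid regulators Gata1 and Tal1 stayed at or under 0.530 TPM in all 8 cultured libraries, and Klf1 at or under 1.15 TPM, and 11 of the 23 genes were under 1 TPM in all 4 PGCLC libraries.

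Of 24 fibroblast genes, 13 were under 1 TPM in all 4 PGCLC libraries, and the list summed to 31 to 32.9 TPM in ESCs, 21.8 to 26.8 in pESCs, 19.2 to 19.8 in ESC-PGCLCs and 36 to 38.5 in pESC-PGCLCs. In it, 4 of 10 tested members were called higher and 0 lower, and 0 higher and 0 lower under all 4 scalings. Trophoblast genes summed to 62.1 to 64.7 TPM in ESC-PGCLCs and 113 to 124 in pESC-PGCLCs, with Tpbpa at 0 throughout. Endoderm genes summed to 1007 to 1039 and 1615 to 1675 TPM, and Apoe (3.71, adjusted p = 0.00052), a lipid carrier that stem cells also express, Krt8 (2.63) and Krt18 (2.55), keratins of simple epithelia, were higher. Streak and mesoderm genes (90.6 to 94.3 TPM in ESC-PGCLCs and 78.3 to 80.5 in pESC-PGCLCs) and neural genes (18.1 to 22.3 and 17.4 to 17.8), with Cdx4 and Pax7 at 0, were summed in the same way. The part of such cells in the results was not tested, and in bulk RNA fewer cells of a type and less RNA per cell cannot be told apart.

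Lists of chromatin and cell state were called as follows, beside 27.5% of all tested genes called higher and 6.66% called lower. Under all 4 scalings the shares over all tested genes were 9.72% and 6.16%. Of the DNA methylation and demethylation genes, 6 of 21 tested members were called higher and 1 lower (2 higher and 0 lower under all 4 scalings), and of the Polycomb and H3K9 methylation genes, 5 of 26 tested members were called higher and 0 lower (0 higher and 0 lower). Of the formative and primed epiblast genes, 5 of 15 tested members were called higher and 0 lower. In the cytoskeleton and SRF list, 12 of 29 tested members were called higher and 2 lower, and under all 4 scalings 7 higher and 2 lower. For extracellular matrix and adhesion, 7 of 31 tested members were called higher and 0 lower, and for innate immune genes, 3 of 14 tested members were called higher and 0 lower. Of the Hox genes, 0 of 3 tested members were called higher and 0 lower. Among 2-cell-like state genes, 0 of 7 tested members were called higher and 0 lower. For endoderm, 7 of 19 tested members were called higher and 0 lower, for trophoblast 4 of 8 tested members were called higher and 0 lower, for neural ectoderm 1 of 8 tested members were called higher and 1 lower and for the streak and mesoderm 4 of 18 tested members were called higher and 2 lower.

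Outside the lists, genes were named by rule, as the largest interactions among called genes with at least 5 TPM in the highest group and separate library differences, leaving out predicted, Riken, microRNA and small nucleolar RNA genes. All 5696 called genes had separate library differences, beside 64.1% of all tested genes, so that part of the rule left out no called gene. The largest positive ones under this rule were AY036118, a long noncoding RNA on chromosome 17 from 39847113 to 39848035 (7.50 ± 0.56 (SE), adjusted p = 0.00034), Snurf, Snrpn, CT010467.1 (6.09) and Uqcrc1. AY036118 was at 226 and 90.4 TPM in ESCs, 37.2 and 32.6 in pESCs, 4.78 and 7.19 in ESC-PGCLCs and 286 and 332 in pESC-PGCLCs. It lies within the ribosomal RNA locus CT010467.1, with which its reads can be shared, and the ESC libraries differed from each other. The rule also gave AC160637.1 (4.44), the cell surface gene Bsg (4.32, basigin, a partner of lactate transporters), Myl9 (4.23, myosin light chain), Nudt16l1 (4.22), Asna1 (4.21, which targets tail-anchored proteins), Mymx (4.20, a fusion peptide of muscle), Mest, Elof1 (4.07, an elongation factor) and Anxa5 (4.05). Bsg was at 185 and 140.0 TPM in ESCs, 80.4 and 80.3 in pESCs, 10.8 and 11 in ESC-PGCLCs and 114 and 121 in pESC-PGCLCs. Myl9 rose from under 1.02 TPM in every stem cell library to 4.16 and 5.29 TPM in ESC-PGCLCs and 72.9 and 68.7 TPM in pESC-PGCLCs. Timp1, an inhibitor of matrix proteases, fell less in pESCs (3.03 ± 0.27 (SE), adjusted p = 0.00042).

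Under the same rule, the largest negative interactions were those of Rpap1 (-5.68, an RNA polymerase II-associated protein), Ctc1 (-5.12, of the telomere capping complex), the 5S ribosomal RNA copy n-R5s196 (-5.05), Arl5c (-4.77), Dqx1 (-4.66), Alox8 (-4.60) and Retn (-4.38). Rpap1 was at 3.62 and 4.07 TPM in ESCs, 9.02 and 36.6 in pESCs, 38.6 and 103 in ESC-PGCLCs and 2.97 and 5.35 in pESC-PGCLCs (-5.68 ± 0.94 (SE), adjusted p = 0.0032). Libraries of the same group differed widely here. Ctc1 was at 4.36 and 7.43 TPM in ESCs, 6.41 and 11.8 in pESCs, 593 and 165 in ESC-PGCLCs and 13.4 and 11 in pESC-PGCLCs (-5.12 ± 0.82 (SE), adjusted p = 0.0027), and Arl5c at 19.3 and 19 TPM in ESCs, 72.7 and 49.5 in pESCs, 479 and 714 in ESC-PGCLCs and 66.3 and 61.8 in pESC-PGCLCs (-4.77 ± 0.34 (SE), adjusted p = 0.00031). Both stood apart in ESC-PGCLCs. The rule also gave Rpl36a-ps3 (-4.36, a pseudogene), Fn3krp (-4.10), Cyp2e1 (-4.05), Pcgf2 (-3.99, of Polycomb complex 1), Blnk (-3.93), Il23a (-3.69), Ptcra (-3.67) and Cxcr2 (-3.64), of which Il23a lost its call without any of 3 single libraries and Ptcra without any of 6. Of 544 olfactory receptors, 16 passed the filter, and 8 of these were called lower under all 4 scalings and 0 higher, beside 6.16% of all genes. A member that passed through the ESC-PGCLC libraries had to differ, so nothing is read from this count. Predicted genes with Gm symbols made up 500 of the 1027 genes that were lower under all 4 scalings and 316 of the 1621 that were higher.

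By nuclear chromosome, the median interaction lay between 0.31 on X and 0.72 on 17, and between -0.05 and 0.19 after GC centring. The X chromosome had 133 of 688 tested genes called higher and 52 lower, beside 27.5% and 6.66% of all tested genes. Under all 4 scalings it had 44 higher and 47 lower, beside 9.72% and 6.16%.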

How the data were processed

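RNA-seq libraries of cultured cells (2 each of ESCs, pESCs, ESC-PGCLCs and pESC-PGCLCs) and 2 of PGCs were grouped by the labels. The authors deposited TPM per gene; reads were aligned to mm10 with Hisat2 and counted with Feature-counts per the study's methods, and the submitters' processing notes also name Bowtie2, RSEM, DESeq2 and R 3.4.2. Versions of aligner and annotation are not given in the sources used here. Of the gene symbols, 35859 matched a single GENCODE M21 gene, 207 did not and 24 had turned into dates. Depth was recovered from TPM and exon length (96.7% to 97.4% of low values, of 1 to 30 reads, were whole within 0.05 read).

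From TPM, log2(TPM + 1) was fitted with limma 3.58.1 in R 4.3.3 (a mean per group, 4 residual degrees of freedom, eBayes with a trend), for the 16684 genes that reached 1 TPM in 2 or more of 8 libraries. Genes were called at a Benjamini-Hochberg adjusted p under 0.05 and a difference of at least 1. The fit was tested on simulated data. Gene lists and families were described by counts and medians, without a set test. Summaries used Python 3.11.15 with numpy 2.4.6 and pandas 2.3.3, and plots used matplotlib 3.10.9.

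Named genes were the 15 largest positive and 15 largest negative calls with at least 5 TPM in the highest group and separate library differences (leaving out predicted, Riken, microRNA and small nucleolar RNA genes), up to 4 called and 2 uncalled members of each list, and set germ cell, sort and imprinted genes. Not every gene that the rule gives is named. Members and lists were chosen with earlier results of these data known. Alternatives were another pseudocount, filters on low values, all 10 libraries, quantile normalization, median centring, no variance trend, a replicate block, other call rules and leaving out each library. GC centring (20 bins, alone or with the block), voom on recovered reads and genes of at least 200 nt were added after seeing the data. A gene with no GC value could not count as called under all 4 scalings.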

Additional observations from a re-analysis of the deposited data

Results flagged for a closer look

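A different change on induction in pESCs and ESCs was found for 5696 genes by the test of the interaction itself, and for 123 of the 132 genes whose interaction is given in the text. Their values, on the log2(TPM + 1) scale and positive where the change was higher in pESCs, are listed once by group, and no explanation was tested. Among imprinted genes and their neighbours, the interaction was Snrpn 6.36, Snurf 6.55, Mest 4.10, Nnat 2.23, Peg3 1.5, Igf2r -1.09, Copg2 2.85, Cd81 3.26, H19 2.02 and Slc22a18 1.67. Among the genes with the largest positive interactions, the interaction was AY036118 7.50, CT010467.1 6.09, Uqcrc1 5.06, AC160637.1 4.44, Bsg 4.32, Myl9 4.23, Nudt16l1 4.22, Asna1 4.21, Mymx 4.20, Elof1 4.07 and Anxa5 4.05. Among the genes with the largest negative interactions, the interaction was Rpap1 -5.68, Ctc1 -5.12, n-R5s196 -5.05, Arl5c -4.77, Dqx1 -4.66, Alox8 -4.60, Retn -4.38, Rpl36a-ps3 -4.36, Fn3krp -4.10, Cyp2e1 -4.05, Pcgf2 -3.99, Blnk -3.93, Il23a -3.69, Ptcra -3.67 and Cxcr2 -3.64.

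Among genes of glycolysis, the respiratory chain and hypoxia, the interaction was Eno1 3.87, Tpi1 3.12, Pgam1 2.69, Aldoa 2.45, Ndufs7 3.30, Ndufa10 2.71, Ndufs3 2.63, Anxa2 3.07, Hilpda 2.42 and Adm 2.07. Among proteasome, mitochondrial ribosome and initiation factor genes, the interaction was Psmd13 3.31, Psmc4 3.0, Psmc5 2.79, Mrpl4 3.75, Mrps18b 3.57, Mrps18a 3.56, Eif2b1 3.09, Eif2b2 3.0 and Eif4ebp1 2.89. Among folding and lysosome genes, the interaction was Pdia3 3.21, Hspa1b -3.16, Hspa1a -2.55, Xbp1 2.50, Ctsz 3.24, Ctsb 2.59 and Sqstm1 2.42. Among amino acid and sterol genes, the interaction was Phgdh 3.05, Asns 2.40, Shmt2 2.25, Insig1 -2.59, Fdft1 2.29, Ebp 2.05 and Srebf2 -2.01. Among cell cycle and apoptosis genes, the interaction was Cdk4 2.57, Cdc20 2.40, Ccne1 2.28, Mcm5 2.23, Bax 4.00, Btg2 2.88, Bid 2.80 and Pmaip1 2.45. Among pluripotency genes, the interaction was Tcl1 3.23, Pou5f1 3.10, Utf1 2.93, Trim28 2.25, Sox2 -2.22, Zfp57 2.08 and Mbd3 2.01.

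Among germ cell specification genes, the interaction was Sox15 3.32, Alpl 1.85, Sall4 1.66, Elf3 1.47, Dppa3 -1.36 and Nanos3 1.18. Among later germline and meiosis genes, the interaction was Tex101 2.80, Fkbp6 1.6, Taf7l -1.02, Sycp3 -2.25, Rec8 1.53 and Zglp1 1.52. Among genes of signalling pathways, the interaction was Id3 3.0, Bmp8b 2.57, Bmp4 1.82, Smad7 -1.56, Foxh1 2.99, Skil -2.19, Gdf3 2.18, Lefty2 2.17, Spry2 -1.90, Fgfr1 -1.19, Fos 1.40, Aldh1a3 -3.41 and Crabp2 2.42. Among haemoglobin, epithelial and matrix genes, the interaction was Hba-x 3.91, Hba-a1 2.83, Hba-a2 2.83, Hbb-bh1 2.54, Apoe 3.71, Krt8 2.63, Krt18 2.55 and Timp1 3.03. Among ribosomal protein and mitochondrially encoded genes, the interaction was Rpl29 3.30, Rplp0 2.42, Rpl26 -2.11, mt-Th -2.82, mt-Nd3 -2.80 and mt-Ts2 -2.51.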

How the results depend on the processing

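Counts by direction depended on scaling. Higher and lower calls in the interaction numbered 2353 and 1901 after quantile normalization, 1746 and 2780 after median centring, 2317 and 1848 after GC centring, and 2289 and 1831 with GC centring and the replicate block. Leaving out 1 library, its partner being assumed to vary like the other groups, gave 4464 to 6386 calls in the interaction, 3648 to 5191 higher and 816 to 1195 lower, 6930 to 8201 for induction in pESCs, 7766 to 8240 in ESCs and 3443 to 3835 for origin in PGCLCs. The origin difference in stem cells was the least stable count, at 0 to 1334 when 1 library was left out, 160 with a filter of 0.1 TPM, 52 with no filter, 200 after quantile normalization, 272 after median centring, 239 after GC centring, 17 with GC centring and the block, 783 with voom, 769 at an unadjusted p and 1092 with no minimum difference. The origin difference in PGCLCs was 6894 with no minimum difference. Without a PGCLC library the stem cell differences themselves stay the same, and their count moves through the variance estimate and its degrees of freedom. The cause of the other moves was not tested.

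Same-numbered libraries showed no shared deviation across genes, with correlations of -0.044 to 0.041. Whether they were handled together cannot be read from this, and the labels do not say. With the replicate number as a block, calls in the interaction were 4594 higher and 1131 lower, and the origin difference in stem cells was 9 genes.

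Among single genes that were not called, the sign turned for Nanog (-0.16, median centring), Itgb3 (0.27, voom), Fut4 (0.20 with a pseudocount of 0.1 and 1.3 with voom) and Prdm14 (-0.57 after quantile normalization, -0.55 after median centring, -0.35 after GC centring with or without the block, -0.016 with voom and -0.020 to 0.41 when 1 library was left out). Of 123 called genes given in the text, 20 lost the call in at least 1 of 23 settings, 10 of them with GC centring, 9 with median centring, 4 with quantile normalization, 4 with voom on recovered reads, 3 with a pseudocount of 0.1, 5 when 1 library was left out and 0 with the block. Rpl36a-ps3 lost it with all 10 libraries. In ESC-PGCLCs, the lower depth limits genes near 0.338 TPM, the worth of 3 reads, which covers counting error only.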
